A study of Mus musculus with 12 samples.

Results

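The genes described here are 6 red cell genes of the mouse, Hba-a1, Hba-a2, Hbb-bs, Hbb-bt, Alas2 and Slc4a1, chosen by gene symbol from a table of 20718 genes as a measure of blood left in the testis. All 6 were listed. Testis RNA had been sequenced from F0 mice (strain written IRC mouse in the labels) whose testes were injected with lentivirus at 4 weeks of age and which were mated at 9 weeks, before the testes were collected. In F0_5251KD the virus carried a mixture of short hairpin RNAs against lncRNA5251, a long non-coding RNA, in the LV3 backbone, and F0_3NC received the negative control hairpin in that backbone. In F0_5251OV the virus carried the full-length lncRNA5251 in the LV5 backbone, and F0_5NC received the empty LV5 vector. Each group had 3 libraries, 12 in all, so every animal had a virus in the testis and no group was left without injection. The injected tissue is a mixture of cell types, and the methods name no cell type to which the vectors are restricted.

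Red cells carry hemoglobin, a tetramer of alpha and beta globin chains that each hold a heme group. Alpha chains in the adult mouse come from Hba-a1 and Hba-a2, a tandem pair on chromosome 11, and beta chains come from a pair of adult genes on chromosome 7. Inbred and outbred mice differ in that adult beta pair: the single haplotype holds Hbb-bs and Hbb-bt, and the diffuse haplotype holds Hbb-b1 (beta major) and Hbb-b2 (beta minor). Alas2 encodes the erythroid form of the enzyme that starts heme synthesis, while its relative Alas1 serves the other tissues, and Slc4a1 encodes band 3, the anion exchanger of the red cell membrane. Mature red cells lack a nucleus and keep globin messenger RNA from their reticulocyte stage for a time, so globin RNA in a solid organ is commonly read as blood.

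The coding sequences of each chain pair are shown first, because shared coding bases limit how far reads within them can be assigned to one gene or the other. The untranslated ends were not compared. The Hba-a1 and Hba-a2 coding sequences have 429 bases each and differ at 1 of them, an identity of 99.8%, with a longest shared run of 380 bases. Positions are counted from 1 at the first base of the start codon, and the difference is C381T, Hba-a1 first. The stretches below hold coding bases 351 to 410 from GENCODE transcripts on GRCm38, at chr11:32284313-32284372 and chr11:32297130-32297189 on the plus strand, and the capital marks the differing base.
Hba-a1: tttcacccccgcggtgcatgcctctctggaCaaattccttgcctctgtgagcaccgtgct
Hba-a2: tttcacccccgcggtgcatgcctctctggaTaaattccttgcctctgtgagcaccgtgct
The Hbb-bs and Hbb-bt coding sequences have 444 bases each and also differ at 1, C417T, with a longest shared run of 416 bases. The last 60 coding bases lie at chr7:103826665-103826724 and chr7:103812656-103812715 on the minus strand.
Hbb-bs: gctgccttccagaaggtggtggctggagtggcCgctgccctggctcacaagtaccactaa
Hbb-bt: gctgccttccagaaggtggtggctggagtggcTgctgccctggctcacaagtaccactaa
The reference used here placed Hbb-bs at 103826523 to 103827928 and Hbb-bt at 103812524 to 103813923 of chromosome 7, Hba-a1 at 32283672 to 32284486 and Hba-a2 at 32296492 to 32297310 of chromosome 11, Alas2 at 150547417 to 150570622 of chromosome X and Slc4a1 at 102348820 to 102365281 of chromosome 11 (RefSeq, GRCm38.p6). Counts of the 4 globin members are uncertain as counts of single genes, since reads within the shared coding bases fit both copies. The deposited counts of these genes included values that were not whole, and how reads were shared between copies is not given.

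The promoters are shown because the globins and Alas2, all genes of the erythroid program, had different patterns over the libraries. RefSeq promoter entries (GRCm38.p6) matched 5 of the 6 members, all but Slc4a1. The 150 bases before the start are printed for the main alpha gene, the main beta gene of the single haplotype and Alas2, at chr11:32283522-32283671 on the plus strand, chr7:103827929-103828078 on the minus strand and chrX:150547267-150547416 on the plus strand. Capitals mark 4 motifs searched on either strand: GATAA, which is read by GATA factors, the CCAAT box, the CACCC box, which is read by Klf factors, and the TATAA box. No marked matches overlap in the promoters printed, and the 3 CACCC matches of Alas2 lie end to end.
Hba-a1: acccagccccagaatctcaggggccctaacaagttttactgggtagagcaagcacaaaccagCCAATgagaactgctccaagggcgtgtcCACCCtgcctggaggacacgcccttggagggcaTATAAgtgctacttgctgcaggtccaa
Hbb-bs: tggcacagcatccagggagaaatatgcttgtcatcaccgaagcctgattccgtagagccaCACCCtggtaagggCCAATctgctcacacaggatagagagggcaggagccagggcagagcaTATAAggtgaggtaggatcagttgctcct
Alas2: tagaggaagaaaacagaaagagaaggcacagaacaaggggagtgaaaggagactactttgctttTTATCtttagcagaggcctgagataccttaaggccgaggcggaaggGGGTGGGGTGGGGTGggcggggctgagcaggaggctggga
Hba-a1 and Hbb-bs each held 1 CCAAT, 1 CACCC and 1 TATAA match and no GATAA. Alas2 held 1 GATAA and 3 CACCC matches and neither CCAAT nor TATAA. Of all 32851 promoters of this length, 13.3% held GATAA, 24.5% CCAAT, 37.4% CACCC and 14.2% TATAA, so each match alone is common. The Hba-a1 and Hba-a2 promoters were equal at all 147 bases compared after a shift of 3.

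The tissue label was checked against its markers. The 9 germ cell genes, among them Prm1 and Prm2 (protamines of spermatids), summed to between 27500 and 32900 RPKM (counts scaled to gene length and library total) in every library, and the 9 somatic genes, led by the Leydig cell hormone Insl3, to between 2070 and 5040 RPKM. Depth was even, with 15431383 to 16355720 estimated counts per library. CPM gives each count relative to its library's total. For the log2 CPM values, used in the principal components and correlations, totals were also scaled by TMM library factors, and 0.5 was added. The leading principal component of the log2 CPM values held 18.7% of the variance, and F0_3NC replicate 2, at -37.3, and F0_5251OV replicate 1, at -18.9, stood apart from their groups on it. No row bore the name lncRNA5251, so the targeted RNA itself was not analysed here. Nothing in the labels ties each library to its own animal, so a p-value reflects library spread, which may be technical. The labels name no batches, and a batch that matched the LV3 and LV5 backbones cannot be told apart from them.

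Hba-a1 was the most abundant of the 6 genes in all 12 libraries. It stood at 72.7, 66.2 and 94.0 RPKM in F0_3NC, at 171, 92.7 and 124 RPKM in F0_5251KD, at 103, 52.4 and 52.6 RPKM in F0_5NC and at 43.9, 62.6 and 55.1 RPKM in F0_5251OV. The F0_5251KD libraries were the highest as a group, but the lowest of them lay just under the highest F0_3NC library, and the first F0_5NC library lay among them. Group means in that order were 77.6 ± 14.5, 129 ± 39.5, 69.3 ± 29.0 and 53.9 ± 9.4 RPKM (SD, n = 3 each). Counts behind these values ranged from 289 to 1139 per library. In bulk tissue, fewer cells of a type and less RNA per cell cannot be told apart.

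Hba-a2, the second alpha gene, was close to absent beside its copy. It had between 0 and 8.09 estimated counts per library, 0 to 1.2 RPKM, and took between 0 and 1.9% of the alpha chain counts. F0_5251OV replicate 3 was at 0 and F0_5251OV replicate 2 was the highest, so the range of 1 group spanned that of all libraries. With 1 differing coding base in 429, how many alpha reads truly came from each copy was not tested.

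Hbb-bs, the main beta gene of the single haplotype, was lower in F0_5251OV than in any other group. It stood at 23.0, 17.7 and 9.29 RPKM in F0_3NC, at 26.8, 17.9 and 10.4 RPKM in F0_5251KD, at 10.4, 17.3 and 6.53 RPKM in F0_5NC and at 3.67, 0 and 5.12 RPKM in F0_5251OV. All 3 F0_5251OV libraries lay under all 9 others, and F0_5251OV replicate 2 had no count. Hbb-bt, its minor partner, was again lowest on average in F0_5251OV, with 4.32, 5.45 and 1.74 RPKM in F0_3NC, 6.15, 3.81 and 1.33 RPKM in F0_5251KD, 3.13, 4.3 and 1.05 RPKM in F0_5NC and 0.98, 0 and 1.06 RPKM in F0_5251OV. Here F0_5NC replicate 3 lay level with the F0_5251OV libraries, so those groups overlapped. The Hbb-bs level was between 3.25 and 7.82 times the Hbb-bt level in the 11 libraries where both were above 0.

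Alas2 was nearly flat. Its 12 libraries lay between 8.15 and 10.8 RPKM, with group means of 8.65 ± 0.473 in F0_3NC, 9.31 ± 0.487 in F0_5251KD, 10.3 ± 0.43 in F0_5NC and 9.29 ± 0.332 RPKM in F0_5251OV (SD, n = 3 each). The coefficient of variation of its CPM over the 12 libraries was 7.8%, against 45.1% for Hba-a1, 66.5% for Hbb-bs and 72.4% for Hbb-bt. Slc4a1 was at the edge of detection, with 3 to 8 counts per library (0.04 to 0.12 RPKM) and overlapping values in all 4 groups. On the RPKM scale, averaged over the 12 libraries, the order was Hba-a1 (82.6), Hbb-bs (12.3), Alas2 (9.38), Hbb-bt (2.78), Hba-a2 (0.542) and Slc4a1 (0.0792). Hbb-bs and Alas2 are neighbours in that order whose ranges overlap, 0 to 26.8 against 8.15 to 10.8 RPKM.

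**Figure D1:**
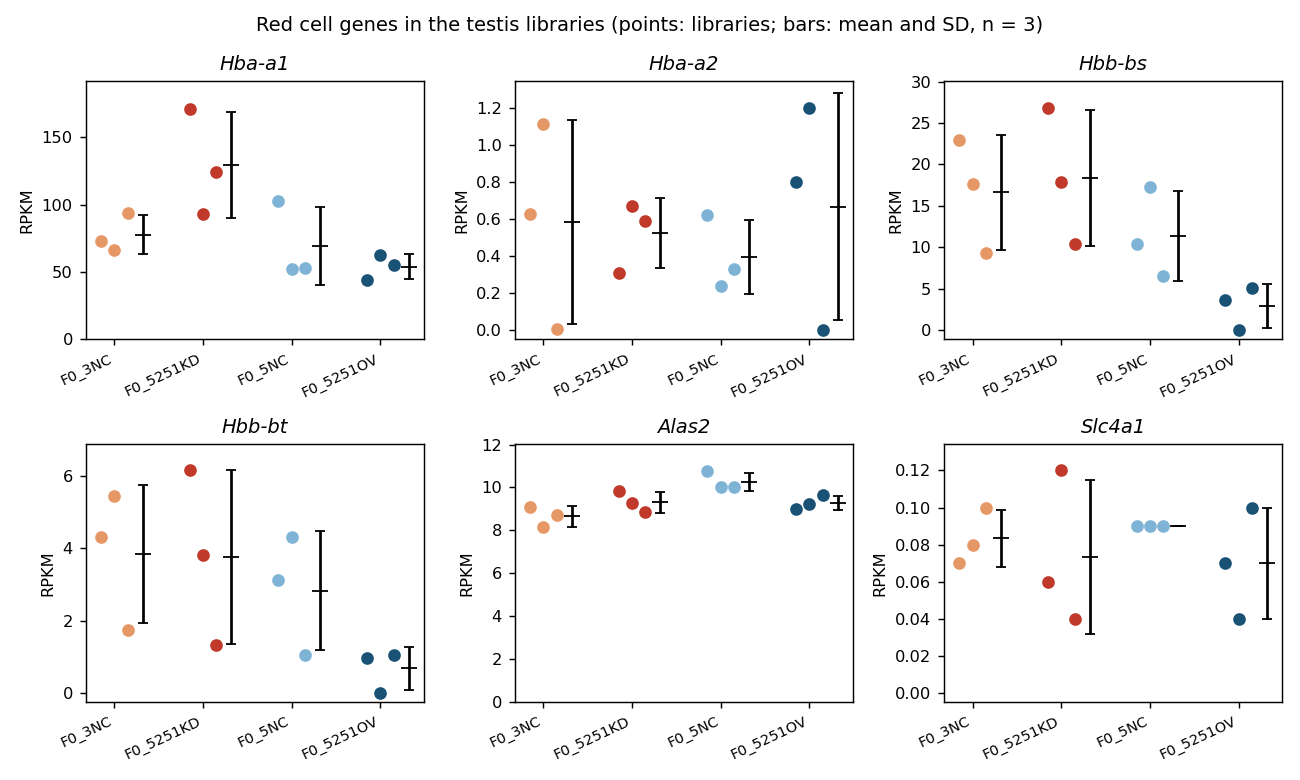
RPKM (vertical axes, linear, each gene on its own scale) of the 6 red cell genes in the 4 groups (horizontal axes). Points are libraries and bars are the mean and SD of 3 libraries; Hba-a1 is highest in F0_5251KD (129 ± 39.5 RPKM), Hbb-bs and Hbb-bt are lowest in F0_5251OV, and Alas2 stays between 8.15 and 10.8 RPKM.

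The table also listed Hbb-b1 and Hbb-b2, the adult beta genes of the diffuse haplotype, which were taken up after the values of the members had been seen. Hbb-b1 averaged 21.1 ± 12.1 RPKM in F0_3NC, 37.6 ± 16.5 in F0_5251KD, 19.5 ± 16.5 in F0_5NC and 28.1 ± 3.4 RPKM in F0_5251OV (SD, n = 3 each). In every F0_5251KD and F0_5251OV library Hbb-b1 was above Hbb-bs. It was under Hbb-bs only in F0_3NC replicate 1 and F0_5NC replicate 2. The 2 haplotype pairs split the beta chain counts very unevenly between libraries of the same group. Hbb-bs and Hbb-bt together took 76.1%, 40.6% and 24.2% of the beta counts in F0_3NC, and 33.7%, 47.4% and 19.2% in the F0_5251KD libraries. The pair took 23.8%, 84.2% and 24.5% in the F0_5NC libraries and 13.6%, 0% and 15.8% in F0_5251OV. These shares rest on 203 to 768 beta counts per library. The 95% Wilson interval was 78.6% to 88.6% for F0_5NC replicate 2 and 20.1% to 28.0% for F0_5NC replicate 1, so libraries of 1 group differed beyond counting error. In F0_5251OV replicate 2 it was 0 of 309 counts, which allows a share of up to 0.971% (3 counts). Intervals and this limit cover counting error only, not the assignment of reads to genes. Hbb-b1 counts also included values that were not whole, such as 209.53 in F0_3NC replicate 2. How reads were shared between the haplotype pairs was not tested.

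Summed over the 4 beta genes the picture was more even. The sum averaged 46.6 ± 10.6 RPKM in F0_3NC, 68.8 ± 27.0 in F0_5251KD, 38.1 ± 17.0 in F0_5NC and 37.8 ± 3.07 RPKM in F0_5251OV (SD, n = 3 each), and the last 2 groups overlapped. The coefficient of variation of the summed CPM was 40.9%, close to the 45.1% of Hba-a1. Alpha chains stood above beta chains in all 12 libraries, with an alpha to beta ratio of RPKM sums from 1.17 in F0_3NC replicate 2, the library that stood apart, to 2.05 in F0_5NC replicate 2. All 6 adult globin genes together took only 0.0035% to 0.012% of all counts.

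**Figure D2:**
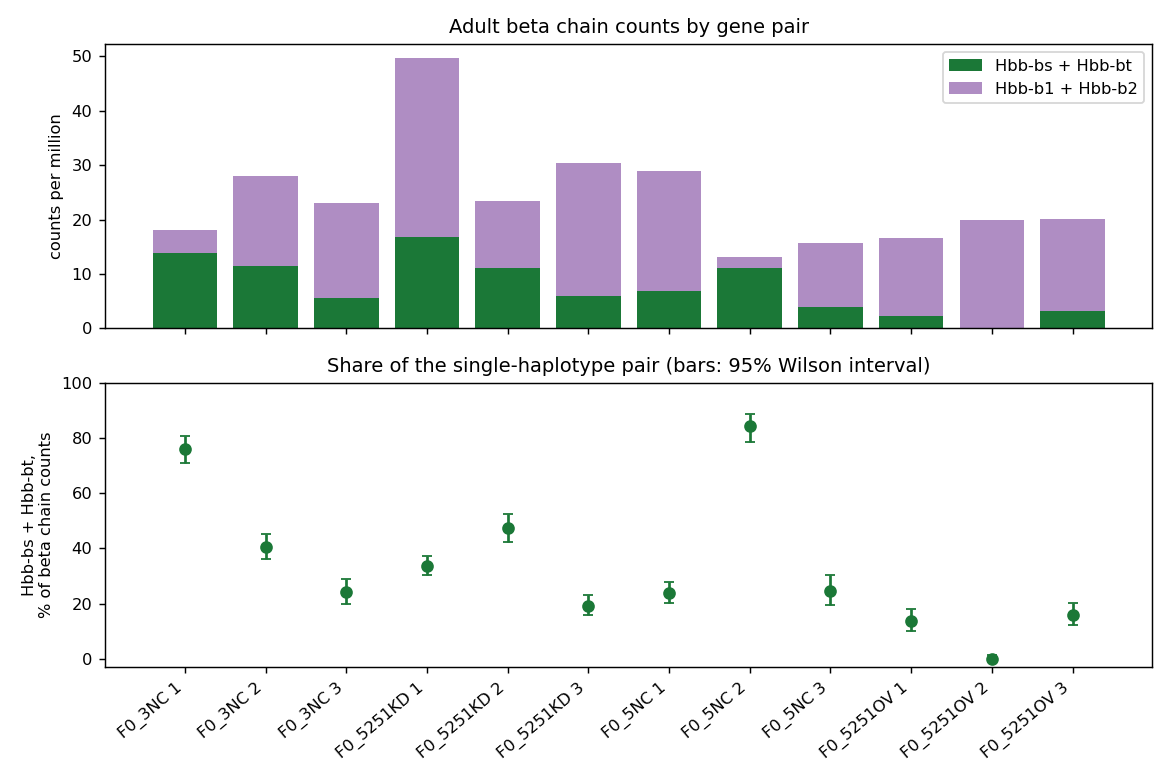
Upper panel, CPM of the beta chain genes in each of the 12 libraries, stacked as the Hbb-bs and Hbb-bt pair (green) and the Hbb-b1 and Hbb-b2 pair (purple). Lower panel, the green pair as a percentage of all beta counts with its 95% Wilson interval; it runs from 0% in F0_5251OV replicate 2 to 84.2% in F0_5NC replicate 2, while the stacked totals of F0_5NC and F0_5251OV overlap.

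F0_5251KD was compared with F0_3NC, the control that shares its backbone. Differences are log2 fold changes of counts from edgeR's quasi-likelihood test, with Benjamini-Hochberg adjustment over the 16296 genes that passed the filter on low counts. Of the 6 members 4 were tested, and Hba-a2 and Slc4a1 did not pass the filter. None of the 4 passed the threshold of 0.05 in F0_5251KD against F0_3NC, where 0.0245% of all genes tested did (4 genes, but 0 when F0_3NC replicate 1 or 3 or F0_5251KD replicate 3 was left out). Before adjustment 1 of the 4 had a p under 0.05 by edgeR, as did 773 of the 16296 genes tested. DESeq2 and limma called none of the 4. Hba-a1 had the largest difference of the 4, 0.74 (SE 0.25, 95% interval 0.19 to 1.28, adjusted p = 0.897 by edgeR, n = 3 per group), and in CPM all 3 F0_5251KD libraries lay above F0_3NC, the lowest at 40.1 against 39.9 in the highest F0_3NC library. Among all genes tested 6.82% had such values without overlap in that direction. Differences of the other members were 0.14 for Hbb-bs (95% interval -1.05 to 1.33), -0.013 for Hbb-bt (-1.37 to 1.34) and 0.096 for Alas2 (-0.10 to 0.30). With all 4 beta genes summed the difference was 0.56 (SE 0.27, adjusted p = 0.897 by edgeR, 95% interval -0.028 to 1.15).

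Overexpression was compared with the empty LV5 vector in the same way. None of the 4 members passed, and 0% of all genes did, although 1429 genes had an unadjusted p under 0.05 and DESeq2 called 28. Before adjustment 2 of the 4 members had a p under 0.05, and DESeq2 and limma called none. Hbb-bs had a difference of -1.92 (SE 0.67, 95% interval -3.36 to -0.48, adjusted p = 0.548 by edgeR, n = 3 per group), without overlap of the libraries, as was the case for 8.63% of all genes in that direction. Hbb-bt had -1.92 (SE 0.80, 95% interval -3.65 to -0.19, adjusted p = 0.552 by edgeR) with overlapping libraries. The genes of the other haplotype had values of the opposite sign, 0.59 for Hbb-b1 (95% interval -0.66 to 1.84) and 0.55 for Hbb-b2 (-0.76 to 1.87). Without 1 library the Hbb-bs difference ranged from -2.63 (without F0_5251OV replicate 3) to -1.34 (without F0_5251OV replicate 2, the library at 0), and that of Hbb-bt from -2.42 to -1.35 without the same libraries. The sum of the 4 beta genes differed by 0.037 (SE 0.28, 95% interval -0.57 to 0.64, adjusted p = 0.974 by edgeR). Hba-a1 differed by -0.31 (95% interval -0.87 to 0.25) with overlapping libraries. Alas2 differed by -0.095 (95% interval -0.29 to 0.10) and its CPM did not overlap either. The part of the haplotype split in the low Hbb-bs and Hbb-bt values was not tested beyond this sum.

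The control groups were compared with each other, although both lack a change of lncRNA5251. They share F0_3NC with the knockdown comparison and F0_5NC with the overexpression comparison. None of the 4 members passed, while 0.331% of all genes did (54 genes). Before adjustment 1 of the 4 members had a p under 0.05 by edgeR, as did 1936 of the 16296 genes tested. DESeq2 and limma called none of the 4. Alas2 was lower in all 3 F0_3NC libraries by a log2 difference of -0.22 (SE 0.093, 95% interval -0.42 to -0.015, adjusted p = 0.402 by edgeR, n = 3 per group), and 10.3% of all genes had values without overlap in that direction. Hba-a1 differed by 0.19 (95% interval -0.37 to 0.74), Hbb-bs by 0.55 (-0.67 to 1.77), Hbb-bt by 0.44 (-0.95 to 1.83) and the sum of the 4 beta genes by 0.31 (-0.28 to 0.91).

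The difference between the knockdown and overexpression effects was tested in the same fit. It was 1.05 for Hba-a1 (SE 0.36, 95% interval 0.26 to 1.83, adjusted p = 0.403 by edgeR) and 2.06 for Hbb-bs (SE 0.87, adjusted p = 0.423), 1.91 for Hbb-bt (SE 1.03, adjusted p = 0.472) and 0.19 for Alas2 (SE 0.13, adjusted p = 0.561), with 3 libraries per group. None passed, and 0% of all genes did, although 1842 had an unadjusted p under 0.05, 2 of them members, and DESeq2 called 35 genes, no member among them. With the 4 beta genes summed it was 0.52 (SE 0.39, 95% interval -0.32 to 1.37).

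**Figure D3:**
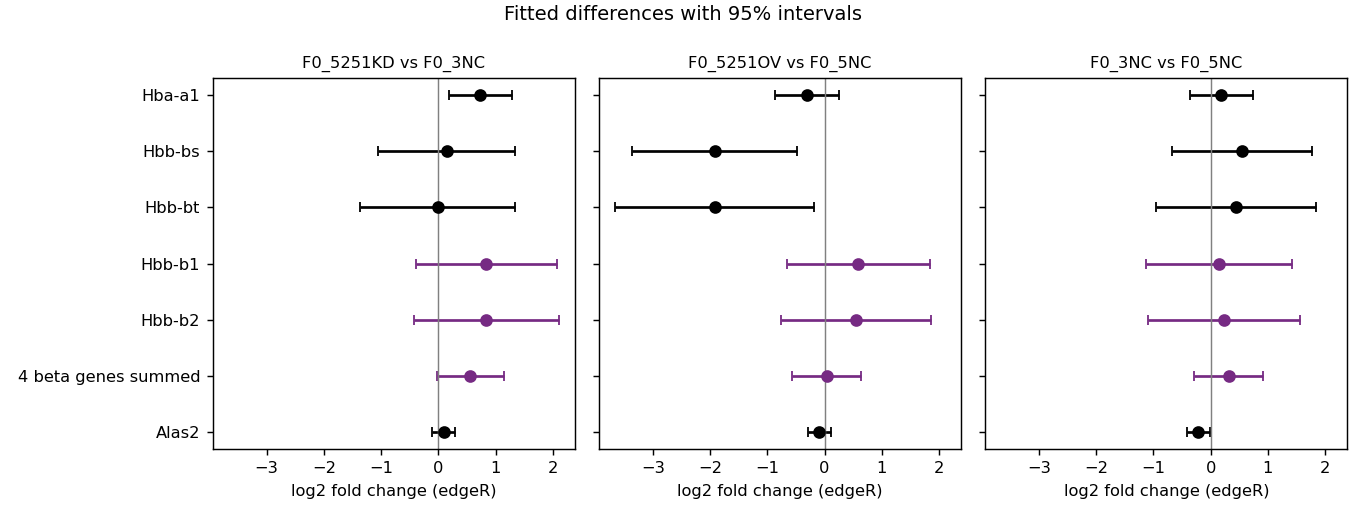
Log2 fold changes from edgeR (points) with 95% intervals (bars) for the tested members (black), and for Hbb-b1, Hbb-b2 and the sum of the 4 beta genes (purple), in 3 comparisons of 3 libraries against 3. In F0_5251OV against F0_5NC the intervals of Hbb-bs and Hbb-bt lie under 0 while that of the sum runs from -0.57 to 0.64; no adjusted p reached the threshold.

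Other genes of the red cell were taken by list. Of the other globin chains, Hbb-y (an embryonic beta chain) had 0 to 2 counts per library, Hbq1a 0 to 1, and Hbq1b none in any library. Hba-x, Hbb-bh1 and Hbb-bh2 were not analysed here, nor were Ahsp and Tspo2 of the late red cell list. Red cell membrane genes were low: 11 of 17 averaged under 1 RPKM, and the defining genes Epb42 (protein 4.2) and Rhag (the Rh-associated glycoprotein) each had at most 1 count in a library. Abundant genes of that list were Tmod1, which caps actin filaments (10.7 to 14.1 RPKM), and Epb41 (3.68 to 5.47 RPKM), and the list summed to between 26.4 and 30.3 RPKM in every library. The list of late red cell genes was split. Tent5c, Mkrn1 and Car2 averaged 277, 248 and 107 RPKM over the 12 libraries, above the 82.6 of Hba-a1, while Car1, Trim58 and Trim10 averaged under 1 RPKM. In F0_5251KD, however, Car2 averaged 106 RPKM, under the 129 of Hba-a1. Erythroid regulators were led by Zfpm1 (7.77 RPKM on average), Tfrc, the transferrin receptor (5.29), and Gata1, which Sertoli cells also express (4.68 RPKM). Of 13 membrane genes tested, 7 had positive and 6 negative differences in F0_5251KD against F0_3NC (median 0.073), 6 and 7 in F0_5251OV against F0_5NC (median -0.020), and 5 and 8 in F0_3NC against F0_5NC (median -0.049). In the same order the counts were 5 and 4, 5 and 4, and 3 and 6 for the 9 regulators, and 2 and 5, 5 and 2, and 4 and 3 for the 7 late red cell genes tested. No gene of these lists passed edgeR's test in any of the 4 comparisons.

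Genes of heme synthesis outside the members were readily detected. Alas1, Alad and Fech, the enzymes of the initial, second and final step, averaged 41.3, 27.5 and 12.4 RPKM. In F0_5251KD against F0_3NC all 11 genes of the list had a positive difference, with a median of 0.22 against -0.0045 over all genes tested, and none passed. Alas1 stood at 47.4 ± 4.4 RPKM in F0_5251KD and 39.6 ± 1.98 in F0_3NC (SD, n = 3 each), a log2 difference of 0.25 (SE 0.077, adjusted p = 0.897 by edgeR). In F0_5251OV against F0_5NC 4 of the 11 were positive and 7 negative, with a median of -0.022 against -0.0020 over all genes. In F0_3NC against F0_5NC 2 were positive and 9 negative, with a median of -0.21 against 0.00049. None of the 11 passed in either.

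Alas2 did not follow the summed adult globin genes over the 12 libraries. Pearson's r between its log2 CPM and that of the sum of the 6 adult globin genes was -0.168 over the 12 libraries (Spearman's rho -0.287), 0.532 over the 6 LV3 libraries and 0.242 over the 6 LV5 libraries. Of the member globins, which are part of that sum, Hba-a1 had r = 0.979, 0.96 within LV3 and 0.967 within LV5. Hbb-bs had 0.407, 0.145 and -0.062 in that order, and Hbb-bt 0.383, 0.043 and 0.0621. Alas1, the non-erythroid enzyme, had r = 0.84 (rho 0.72), 0.855 within LV3 and 0.647 within LV5, the highest of the 11 heme synthesis genes, of which Ppox was the lowest at -0.13. Without F0_5251KD replicates 1 and 3, whose globin sums were farthest from the median, r was -0.284 for Alas2 and 0.588 for Alas1. The 8 clearance genes of at least 1 CPM ranged over the 12 libraries from r = -0.293 for Slc40a1, the iron exporter, to 0.873 for Ftl1, the ferritin light chain (0.84 within LV3 and 0.925 within LV5). Fth1 had 0.312 over the 12 libraries, but 0.867 within LV3 and 0.918 within LV5. The 3 such platelet genes had r = 0.0955 (Itga2b), 0.448 (Gp1bb) and 0.751 (Pf4). High values were not confined to heme or blood genes. The 9 testis somatic genes ranged from r = 0.0403 (Sox9) to 0.738 (Cyp11a1, 0.931 within LV3 and 0.147 within LV5). The 10 endothelial genes ranged from -0.339 (Cldn5) to 0.696 (Cdh5). These are descriptions over libraries that share groups, with no test.

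**Figure D4:**
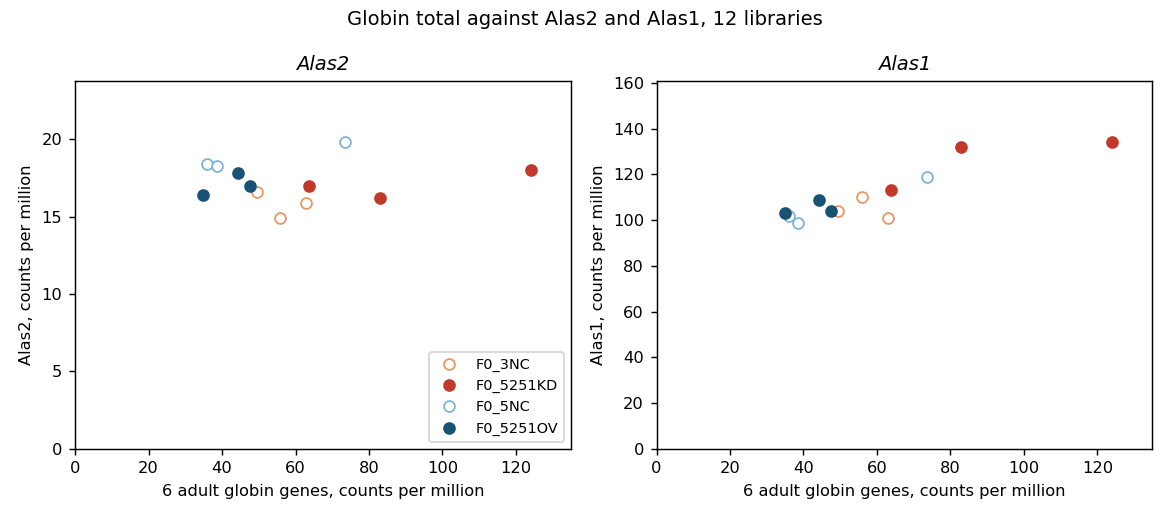
CPM of Alas2 (left) and Alas1 (right) against the summed CPM of the 6 adult globin genes in 12 libraries, with linear axes from 0; open circles are control groups and filled circles are knockdown (red) and overexpression (blue). Alas2 stays between 14.9 and 19.8 CPM while the globin sum runs from 34.9 to 124 CPM, and Alas1 lies between 98.9 and 134 CPM.

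By the correlation of log2 CPM with the mean log2 CPM of Hba-a1, Hbb-bs and Hbb-bt over the 12 libraries, among 15158 genes, the 5 most alike were Nuak2 (0.9), Csrp1 (0.887), Runx1 (0.845), Slc20a1 (0.834) and Pcsk6 (0.828). The 3 least alike were Kifc1 (-0.896), Gm40514 (-0.831) and Nr2c1 (-0.81). Without F0_5251OV replicate 2, which had no Hbb-bs or Hbb-bt count, Csrp1 ranked 1 (0.943) and Nuak2 ranked 6 (0.845). Pcsk6, Runx1 and Slc20a1 then ranked 20, 29 and 123. Measured against the sum of all 6 adult globin genes instead, an alternative chosen after seeing the data, the 5 most alike were Zbtb7b (0.941), Cebpb (0.895), Mgll (0.889), Zfp36l1 (0.889) and Helz2 (0.88), and Nuak2 ranked 365 with 0.621. This measure differs in several ways at once, and which of them moved the neighbours was not tested.

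Among the lists tied to red cells or heme, only that of heme clearance held a call, and it lay between the control groups. Hmox1, the heme oxygenase that opens the heme ring, was higher in F0_3NC than in F0_5NC by a log2 difference of 1.02 (SE 0.14, adjusted p = 0.00422 by edgeR), with 14.6 ± 1.29 against 7.38 ± 1.37 RPKM (SD, n = 3 each), and stood at 11.1 ± 1.91 RPKM in F0_5251KD and 6.69 ± 0.218 in F0_5251OV. Its call held in all 15 alternatives run, with adjusted p up to 0.0374. Hmox1 was 1 of 9 tested genes of its list to pass there, where 2 of the 9 had positive and 7 negative differences (median -0.059). No member passed in that comparison, and whether the Hmox1 difference goes with blood was not tested. The list was led by Fth1, the ferritin heavy chain (263 RPKM on average), and none of the 9 passed in the other comparisons. Hemopexin (Hpx) and the hemoglobin scavenger receptor Cd163 averaged 0.123 and 0.327 RPKM.

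Markers of other cells that blood or the dissection could bring were read beside these values. The 9 platelet genes, led by Pf4, summed to 6.49 to 7.02 RPKM in F0_3NC, 7.82 to 9.73 in F0_5251KD, 6.48 to 11.1 in F0_5NC and 5.24 to 6.33 RPKM in F0_5251OV, with 7 of 9 under 1 RPKM on average. The 10 neutrophil genes all averaged under 1 RPKM over the 12 libraries, with sums of 0.55 to 0.99, 0.81 to 1.42, 1.58 to 4.27 and 0.46 to 2.42 RPKM in the same order. Ltf was the most abundant of them over all libraries, with group means of 0.03, 0.0833, 1.65 and 0.943 RPKM in that order. S100a8 averaged 0.16 RPKM in every group. S100a8 and S100a9, which define neutrophils, had at most 2 and 3 counts in a library. The 11 lymphocyte genes listed, led by Cd3d, summed to at most 16.4 RPKM in any library (Trac was not analysed here). The 10 endothelial genes, led by Cldn5, summed to 14.9 to 16.3, 16.9 to 18.8, 19.7 to 22.5 and 15.1 to 18.2 RPKM. All 10 had positive differences in F0_5251KD against F0_3NC (median 0.21) and negative ones in F0_5251OV against F0_5NC (median -0.33) and in F0_3NC against F0_5NC (median -0.17), and none passed. Their part in the globin values was not tested.

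Epididymal genes, led by Crisp1, summed to 4.47 to 10.8 RPKM in F0_3NC, 2.39 to 4.1 in F0_5251KD, 18.8 to 106 in F0_5NC and 5.86 to 73.1 RPKM in F0_5251OV, and Spink8 was called lower in F0_3NC than in F0_5NC (-3.79, SE 0.65, adjusted p = 0.0235 by edgeR), a call lost in 6 of 15 alternatives (Lcn5 and Lcn8 were not analysed here). Adipocyte genes, led by Adipoq, summed to 16.4 to 24.6 RPKM in the F0_3NC libraries, 20.1 to 49.8 with the knockdown, 15.8 to 41.5 in the F0_5NC libraries and 16.4 to 20.6 RPKM with overexpression. Of 6 tested, 4 had positive differences in F0_5251KD against F0_3NC (median 1.0) and 5 had negative ones in F0_5251OV against F0_5NC (median -1.13), and none passed in either. Plin1 was called lower in F0_3NC than in F0_5NC (-1.46, SE 0.25, adjusted p = 0.0219 by edgeR), a call lost in 5 of 15. The 9 testis somatic genes summed to 2570 to 2740, 2590 to 4220, 2530 to 5040 and 2070 to 2870 RPKM in the same order of groups. In F0_5251OV against F0_5NC all 9 had negative differences (median -0.37), 4 with an unadjusted p under 0.05 and none past edgeR's adjusted threshold, and in F0_5251KD against F0_3NC 5 were positive and 4 negative (median 0.15). The immediate early genes, which respond within minutes to stress or handling, summed to 81.6 to 87.7 RPKM in F0_3NC, 147 to 181 in F0_5251KD, 36.3 to 45.3 in F0_5NC and 28.5 to 39.8 RPKM in F0_5251OV, with Nr4a1 the most abundant. All 4 genes called in F0_5251KD against F0_3NC belonged to this list: Fos (1.58), Egr1 (1.07), Btg2 (1.37) and Zfp36 (0.91), with adjusted p from 0.00856 to 0.0328 by edgeR. All 4 calls were lost when F0_3NC replicate 1 or 3 or F0_5251KD replicate 3 was left out. In F0_3NC against F0_5NC 7 of its 12 genes were called higher, from Dusp1 (0.93), Zfp36 (1.47), Junb (1.63), Fos (1.94) and Btg2 (2.38) to Egr2 (3.11) and Egr1 (3.49), and all 7 held in the 15 alternatives run. The groups thus differed in these genes while the members did not pass. The part of these lists in the globin values was not tested.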

How the data were processed

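Testis RNA of 12 libraries in 4 groups was analysed. Messenger RNA was captured by the authors on oligo(dT), and they primed cDNA with random hexamers without a named step that marks strand, and aligned reads with SOAPaligner; the build per the labels was mm10. The authors deposited estimated counts per gene, of which 12% were not whole (tolerance 1e-06), and RPKM values, which are counts per length and library total. Which tool estimated the counts: not given in the sources used here. A further 18 columns of per-sample values match no sample here and were not used, nor were the authors' group means. Estimated counts were rounded and tested with edgeR 4.0.16 (TMM, filterByExpr, quasi-likelihood, two-sided) in 1 fit of 12 libraries with 4 groups, Benjamini-Hochberg threshold 0.05, in R 4.3.3. The fit was also tested on simulated data. The study used DEGseq. DESeq2 1.42.0 and limma 3.58.1 on log2(RPKM + 1) or log2(RPKM + 0.1) were alternatives. Likeness used genes of at least 1 CPM on average. Named genes were the members, list genes past the threshold, the 3 most abundant genes of each erythroid list, the most abundant of other lists and the 5 most and 3 least alike, except that some list genes are not reported here. Other genes, such as those that define a cell type, were named after their values were seen. The members and lists were chosen with earlier results of these data known.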

Additional observations from a re-analysis of the deposited data

How the results depend on the processing

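The adjusted p of the 4 tested members stayed above 0.05 in all 279 results under the alternatives run, and 269 of these kept the direction. The 10 that turned were small differences or sums over other genes. In F0_5251KD against F0_3NC, Hbb-bs was -0.14 without F0_3NC replicate 3 and -0.22 without F0_5251KD replicate 1 (range -0.22 to 0.46 without 1 library), and Hbb-bt was 0.097 without F0_3NC replicate 1, 0.30 without F0_3NC replicate 2, 0.39 without F0_5251KD replicate 3 (range -0.56 to 0.39), 0.11 with near-identical copies summed and 0.56 with all 4 beta genes summed. In F0_5251OV against F0_5NC, Hba-a1 was 0.028 without F0_5NC replicate 1 (range -0.45 to 0.028), and Hbb-bs and Hbb-bt were both 0.037 with all 4 beta genes summed, an alternative chosen after seeing the data. Genes called in F0_5251KD against F0_3NC were 4, but 20 with DESeq2, 2 with limma on log2(RPKM + 1), 0 with log2(RPKM + 0.1) and 0 to 4 without 1 library (0 without F0_3NC replicate 1 or 3 or F0_5251KD replicate 3, 1 without F0_5251KD replicate 1). In F0_5251OV against F0_5NC they were 0, but 28 with DESeq2, 3 with no filter, 3 with only the groups compared and 0 to 1 without 1 library (1 without F0_5NC replicate 2 or 3). In F0_3NC against F0_5NC they were 54, but 138 with DESeq2 and 30 to 54 without 1 library (35 without F0_3NC replicate 2, 30 without F0_5NC replicate 3). For the difference of effects they were 0, but 35 with DESeq2, 1 with limma on log2(RPKM + 1) and 0 to 1 without 1 library (1 without F0_5NC replicate 3). The causes were not tested. Of 678 list medians 43 moved beyond the spread of the libraries, 21 of them in the neutrophil list, and none in the heme synthesis or endothelial lists. The log2 ratio of the summed member globins, 0.59 for F0_5251KD against F0_3NC, -0.53 for F0_5251OV against F0_5NC and 0.26 for F0_3NC against F0_5NC, moved by less than the library spread with RPKM sums.

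Replicate numbers did not pair the samples: deviations of same-numbered libraries correlated from -0.295 to 0.212. With the replicate block 2 genes were called in F0_5251KD against F0_3NC, and no member passed in any comparison. Low counts limit Slc4a1 and Hba-a2, which were not tested.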
